A study of Homo sapiens with 6 samples.

Results

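TRIM genes encode tripartite motif proteins, a family built from a RING finger, B-box zinc fingers and a coiled coil, most of which act as E3 ubiquitin ligases. They were taken here by name: every row of the deposited table whose symbol is TRIM followed by a number and at most 1 further letter, which gave 72 of 35106 genes. The cells were HCT116, a human colon carcinoma line that the labels give as wild type (WT), sequenced as RNA in 6 libraries. The 3 treated libraries came from cells held for 24 h with curcumin, a polyphenol from turmeric. Its dose is taken as 30 µM, although the labels' unit is spelled like micrometres. The 3 other libraries came from untreated cells, labelled as having treatment none; the labels name no solvent control. It is not stated whether replicates were separate cultures, so the p-values reflect the spread among these libraries alone, which may be technical.

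In a ubiquitin cascade an E1 enzyme activates ubiquitin, an E2 enzyme carries it, and an E3 ligase brings the E2 to the substrate. In TRIM proteins the RING finger binds the E2, the coiled coil makes dimers, and the domain at the carboxyl end picks the substrate. The family is best known for antiviral defence, where TRIM5 binds retroviral capsids, TRIM21 binds antibody-coated viruses in the cytosol and TRIM25 modifies the RNA sensor RIG-I. Other members work in the nucleus, at microtubules or in muscle. The symbol does not by itself show ligase activity: TRIM14, TRIM16, TRIM16L, TRIM29 and TRIM44 lack a RING finger, and TRIM80P is annotated as a unitary pseudogene. All 72 were found in GENCODE release 29 (GRCh38), 71 of them as protein-coding genes.

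The libraries held 16663562 to 17893056 estimated counts with curcumin and 18154380 to 20311769 without. Scaling bears on every result, because the TMM factors, which correct for a few genes taking up a large share of a library, were 0.716 to 0.804 with curcumin and 1.30 to 1.34 without. Levels are given as TMM-normalised CPM, counts scaled to a common library size. For counting error only, a count of 0 has an upper 95% confidence limit of 3 counts. That equals 0.224 to 0.238 CPM in curcumin libraries and 0.114 to 0.123 CPM in untreated libraries. Of the 7 colon epithelial markers, KRT8 and KRT18 were the most abundant in both groups, whereas CEACAM5 and VIL1 had at most 12 counts in any library. The 7 summed to 6111 to 6830 CPM with curcumin and 2909 to 3395 CPM without, a sum carried by KRT8 and KRT18. The others differed. EPCAM rose, at 323 ± 13.4 CPM with curcumin and 174 ± 26.7 CPM without (SD, n = 3 each; edgeR, adjusted p = 0.000631). It was not called with library size alone (0.09, adjusted p = 0.634). The gut transcription factor gene CDX2 fell, at 9.64 ± 2.96 CPM with curcumin and 25.4 ± 1.19 CPM without (SD, n = 3 each; edgeR, adjusted p = 0.000583). CDH1 was not called, at 133 ± 13.9 CPM with curcumin and 119 ± 23.5 CPM without. Of CDH1 the scaling set the direction, at 0.55 and called higher with the trend with transcript length removed, and at -0.65 and called lower with library size alone. The 5 leukocyte markers summed to 12.4 to 31.2 CPM with curcumin and 0.411 to 0.607 CPM without, mostly CD14 in the curcumin libraries, with CD3E at 0 throughout and PTPRC at 0 in the untreated libraries. The 3 endothelial markers summed to 8.30 to 28.1 CPM with curcumin, mostly PECAM1, and 1.36 to 2.20 CPM without. The sums of the 5 fibroblast markers overlapped, at 15.5 to 38.7 CPM with curcumin and 26.0 to 31.1 CPM without, and were mostly COL1A1. COL3A1, DCN and LUM had at most 10 counts in any library. PDGFRB had 0 counts in the curcumin libraries and 8, 7 and 10 in the untreated ones. The part of these marker shifts in the TRIM results was not tested. In bulk RNA, fewer cells of a type and less RNA per cell cannot be told apart.

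After curcumin most of the TRIM genes that changed were lower, and TRIM28, the most abundant of them, was the only one called higher. Of the 72, 43 had enough counts to test, 13 had no count in any library, and 16 had some counts but too few to test. By edgeR's quasi-likelihood test, with p-values adjusted by Benjamini-Hochberg over all 13718 genes tested and a call at 0.05, 23 of the 43 fell, 1 rose and 19 had no call. Among all tested genes 28.9% were called lower and 27.2% higher, so the 53.5% of TRIM genes called lower lay above that background and the 2.33% called higher below it. At 15 of the 43 the fall was at least 2-fold, against 17.4% of all tested genes. At an unadjusted p under 0.05, 25 were lower and TRIM28 was still the only one higher, against 31.2% and 29.8% of all tested genes. DESeq2 also called 23 lower and TRIM28 alone higher, against 28.5% and 29.6% of all tested genes. Its 23 held TRIM6 (DESeq2, adjusted p = 0.0339) in place of TRIM66 (DESeq2, adjusted p = 0.0586). The median log2 fold change was -0.72 over the 43 TRIM genes and -0.04 over all tested genes.

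The groups themselves did not overlap for 26 of the 43. For 25 of them every curcumin library lay below every untreated library, against 33.1% of all tested genes, and for 1, TRIM28, every curcumin library lay above, against 30.9% of all tested genes. Of the 23 called lower, 22 had groups that did not overlap, and the exception was TRIM8.

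**Figure D1:**
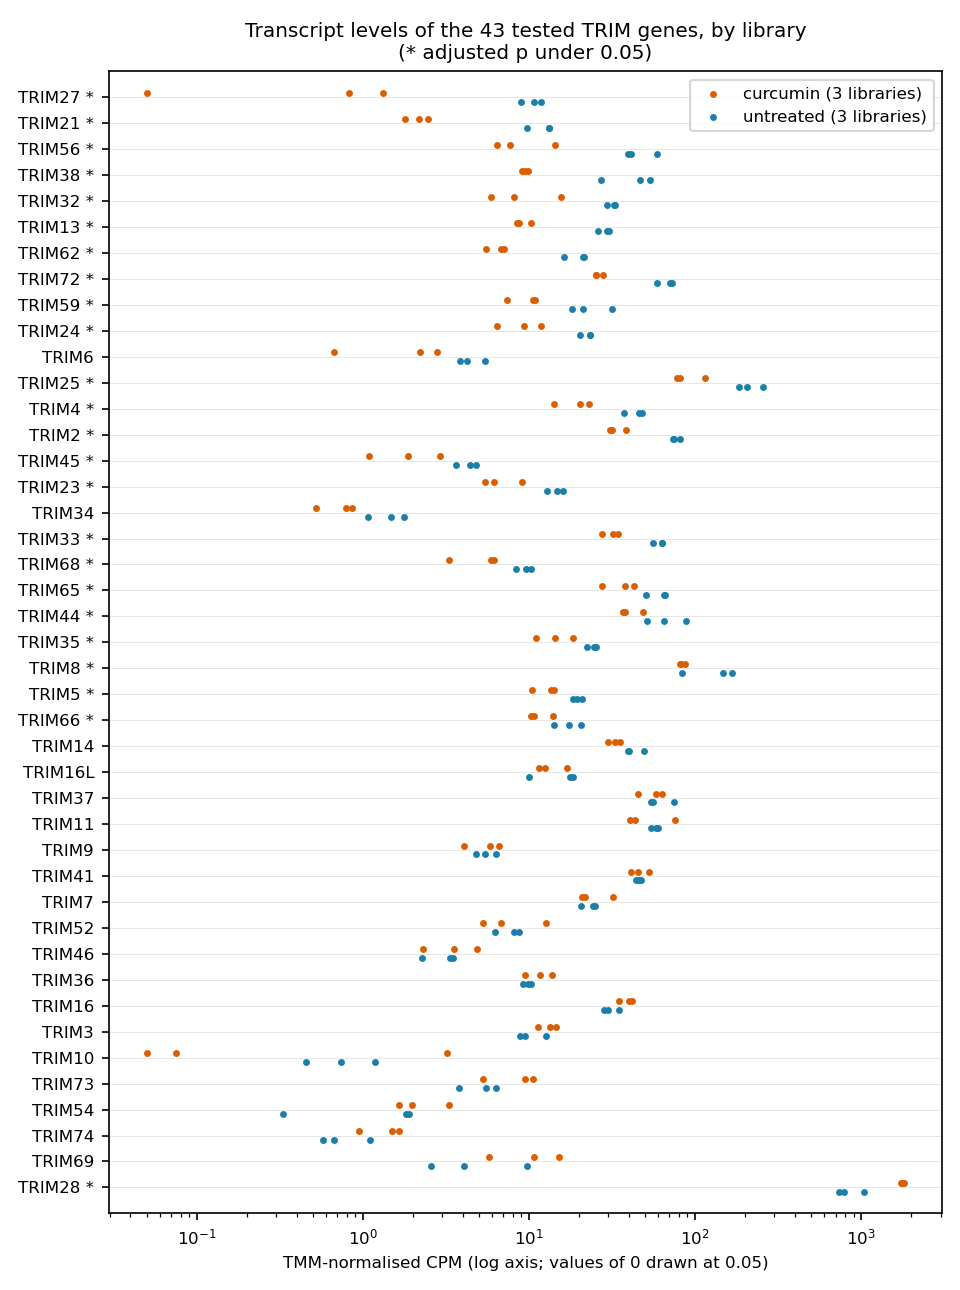
TMM-normalised CPM (log axis) of the 43 tested TRIM genes in each of the 3 curcumin and 3 untreated libraries, ordered by log2 fold change from TRIM27 at the top to TRIM28 at the bottom; a star marks an adjusted p under 0.05 and a value of 0 is drawn at 0.05. For 25 genes the curcumin points all lie to the left of the untreated points, and for TRIM28 they all lie to the right.

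TRIM28 (ENSG00000130726; chromosome 19, 58544091 to 58550722, plus strand, 17 exons), also called KAP1, is the corepressor that KRAB zinc finger proteins bring to chromatin. It stood at 1745, 1749 and 1812 CPM with curcumin, against 791, 1043 and 739 CPM in untreated cells. The curcumin libraries lay close together and all above the untreated ones, of which the second was the highest. Its mean was 1768 ± 37.4 CPM with curcumin and 858 ± 162 CPM without (SD, n = 3 each), a log2 fold change of 1.04 ± 0.16 (SE; edgeR, adjusted p = 0.000451). This rise depends on the scaling. With library size alone, the log2 fold change of TRIM28 was 0.24 and was not called (adjusted p = 0.223). That scaling moved the median of all genes to -0.84, from -0.04 with TMM factors. TRIM28 lay above the median under both, but a change of scaling shifts all genes nearly alike, so this is no separate test.

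The share of each library taken by these genes rests on library size alone. On that scale the median log2 fold change of all tested genes was -0.84, so a lower share is not by itself particular to TRIM genes. All 72 together held 0.205%, 0.191% and 0.191% of the counts with curcumin, against 0.280%, 0.307% and 0.302% in untreated cells. The groups did not overlap, and the difference of means was -0.101 percentage points (two-sided exact permutation test, p = 0.1, the smallest that 3 against 3 libraries allow). Without TRIM28 the other 71 genes held 0.0622% ± 0.00267 of the counts with curcumin and 0.183% ± 0.0189 without (SD, n = 3 each; exact permutation p = 0.1). TRIM28 alone held 0.140%, 0.131% and 0.130% with curcumin, against 0.103%, 0.140% and 0.0981% without, and these ranges overlapped (exact permutation p = 0.3). Its part of all TRIM counts was 68.3%, 68.7% and 67.7% with curcumin, against 36.7%, 45.5% and 32.5% without (exact permutation p = 0.1). When the 100 most abundant other genes were left out of the denominator, the 72 genes held 0.337% ± 0.00467 with curcumin and 0.375% ± 0.0117 without (SD, n = 3 each; exact permutation p = 0.1).

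**Figure D2:**
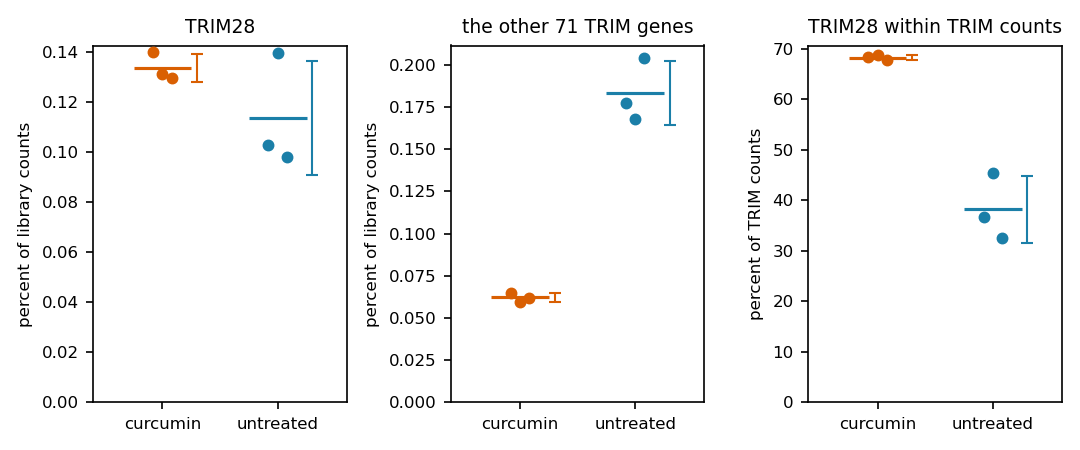
Percent of library counts in TRIM28 (left) and in the other 71 TRIM genes (middle), and percent of TRIM counts in TRIM28 (right), for 3 curcumin and 3 untreated libraries; points are libraries, horizontal lines means and vertical bars SD. For the other 71 genes every curcumin share lies below every untreated one, whereas the TRIM28 shares of library counts overlap.

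Levels per kilobase of the longest coding transcript give only a rough order of genes, as the isoforms expressed and read sharing are not known. On that scale TRIM28 led both groups, at 597 CPM per kb with curcumin and 290 CPM per kb without. TRIM25 came next, at 15.96 CPM per kb with curcumin and 37.6 CPM per kb without. The order below them differed. With curcumin TRIM37, TRIM41 and TRIM16 followed at 12.9, 12.8 and 11.6 CPM per kb, and in untreated cells TRIM8, TRIM65 and TRIM37 followed at 18.2, 17.6 and 14.2 CPM per kb.

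The other members of the chromatin class carry a PHD finger and a bromodomain, like TRIM28, and all 3 were called lower. TRIM33, which binds SMAD proteins of the TGF-beta pathway, stood at 27.4, 31.9 and 34.2 CPM with curcumin, against 55.6, 63.4 and 63.2 CPM in untreated cells, with no overlap. Its log2 fold change was -0.96 ± 0.15 (SE; adjusted p = 0.000518). TRIM24, a reader of histone H3 tails, stood at 9.34, 11.7 and 6.41 CPM with curcumin, against 20.32, 23.2 and 23.3 CPM without, a log2 fold change of -1.28 ± 0.24 (SE; adjusted p = 0.00117). TRIM66 had the smallest fall of the class, -0.58 (adjusted p = 0.0448), and was called lower in only 5 of the 16 alternatives run. The call of TRIM66 was lost without curcumin replicate 1 or 3 or untreated replicate 2 or 3, at adjusted p of 0.0771 to 0.162. With the trend with transcript length removed (below), none of these 3 was called: TRIM24 was at -0.47, TRIM33 at -0.18 and TRIM66 at 0.33, with adjusted p of 0.154, 0.304 and 0.211. TRIM28 stayed at 1.04 there (adjusted p = 0.000673).

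The antiviral and interferon-inducible members fell in part. Of 10 such genes in the list, 9 were tested, and TRIM21, TRIM56, TRIM38, TRIM25 and TRIM5 fell, with none called higher, against 28.9% of all tested genes lower and 27.2% higher, and a median log2 fold change of -1.24. Once the length trend was removed 5 were called lower, against 21.5%, and with library size alone 8, against 56.5%. TRIM6, TRIM14, TRIM34 and TRIM69 were not called, at -1.24, -0.39, -0.98 and 0.94, and TRIM22 had at most 18 counts in a library and was not tested. Of 16 alternatives run, TRIM6 was called lower in 8 and TRIM14 in 3, and TRIM69 was called higher in 2. TRIM34 was called lower in 2 of the 15 in which it was tested.

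TRIM21 (ENSG00000132109; chromosome 11, 4384897 to 4393696, minus strand), the Ro52 autoantigen and cytosolic antibody receptor, stood at 2.17, 2.46 and 1.80 CPM with curcumin, against 13.2, 9.79 and 13.3 CPM in untreated cells. No curcumin library came near an untreated one, and the fall was 5.63-fold (log2 fold change -2.49 ± 0.27, SE; edgeR, adjusted p = 5.75e-05), the smallest adjusted p of the family. TRIM56, an antiviral ligase linked to cytosolic DNA sensing, stood at 6.43, 7.70 and 14.3 CPM with curcumin, against 41.3, 39.3 and 59.4 CPM without (log2 fold change -2.30 ± 0.30, SE; adjusted p = 0.000157). TRIM38, which restrains Toll-like receptor signalling, stood at 9.42, 9.13 and 9.93 CPM with curcumin, against 46.8, 27.1 and 53.2 CPM without. Its curcumin libraries were nearly level, its second untreated library was the lowest of that group, and its log2 fold change was -2.16 ± 0.25 (SE; adjusted p = 8.14e-05).

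TRIM25, the ligase that activates RIG-I and also known as oestrogen-responsive finger protein, was the most abundant member after TRIM28. It stood at 77.7, 81.7 and 115 CPM with curcumin, against 206, 183 and 257 CPM without, a log2 fold change of -1.23 ± 0.19 (SE; adjusted p = 0.000444). TRIM4, reported to act on RIG-I as well, stood at 20.4, 14.2 and 23.1 CPM with curcumin, against 47.8, 37.5 and 46.1 CPM without, at -1.19 ± 0.21 (SE; adjusted p = 0.000842). For both genes all curcumin libraries lay below all untreated ones.

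Promoters of some of these genes hold the core of the interferon-stimulated response element, the site of interferon-activated factors. RefSeq promoter windows (GRCh38.p14, from 250 bases before to 50 bases after a transcription start) were found for 54 of the 72 genes and searched on both strands for GAAA, any 2 bases and GAAA. Of the 33 tested TRIM genes with a window, 8 held it: TRIM2, TRIM5, TRIM21 and TRIM44 of the 16 called lower, and TRIM14, TRIM16, TRIM34 and TRIM69 of the 17 others. Among all 35116 windows 3.57% held it, and among 10290 tested genes with a window 3.79% did. Stretches from 7 of these 8 genes are printed, 5′ to 3′ on the strand of the gene and with the core in capitals, to show that the motif stands in genes that fell and in genes without a call; TTTC, any 2 bases and TTTC is the same motif read on the other strand. For TRIM2, which has several starts, the stretch is not printed. The first 3 genes fell after curcumin and the other 4 were not called.
TRIM21: ctgagcgGAAACTGAAAGTGAAAtagggag
TRIM5: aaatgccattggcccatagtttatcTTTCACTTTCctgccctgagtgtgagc
TRIM44: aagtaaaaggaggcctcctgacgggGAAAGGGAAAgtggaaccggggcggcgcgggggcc
TRIM14: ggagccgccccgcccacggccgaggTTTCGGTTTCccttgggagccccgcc
TRIM16: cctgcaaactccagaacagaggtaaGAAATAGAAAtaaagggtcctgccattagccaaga
TRIM34: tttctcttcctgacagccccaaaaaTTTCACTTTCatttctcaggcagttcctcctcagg
TRIM69: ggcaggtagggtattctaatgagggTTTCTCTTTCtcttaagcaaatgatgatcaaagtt

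These stretches lie at chr11:4393663-4393692 (TRIM21, minus strand), chr11:5685075-5685126 (TRIM5, minus), chr11:35662715-35662774 (TRIM44, plus), chr9:98119223-98119273 (TRIM14, minus), chr17:15682997-15683056 (TRIM16, minus), chr11:5624886-5624945 (TRIM34, plus) and chr15:44736441-44736500 (TRIM69, plus). In TRIM21, where it lies just after the start, 2 copies of the core overlap. TRIM5 and TRIM34 carry the same 10 letters, and the second copy in TRIM21 is these letters read on the other strand. Other motifs searched in the same way gave fewer matches. The antioxidant response element TGACNNNGC was in 3 of the 33 tested TRIM genes (TRIM2, TRIM62 and TRIM72, all called lower), against 13.3% of windows and 19.3% of tested genes. The GC box GGGGCGGGG was in 5 of the 33, against 15.7% of windows and 33.7% of tested genes. The heat shock element, GAA, TTC and GAA with any 2 bases between them, was in 0 of 54, against 0.490% of windows. A match is a description of letters, not a bound site, and no match speaks only of these letters in these windows.

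Members with a PRY-SPRY domain, the fold with which TRIM5, TRIM21 and TRIM25 bind their targets, made up the largest class. Of 18 tested, 11 fell and 0 rose, against 28.9% and 27.2% of all tested genes, with a median log2 fold change of -0.93. After removal of the length trend 10 were lower, against 21.5%, and with library size alone 16, against 56.5%.

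TRIM27 (ENSG00000204713; chromosome 6, 28903002 to 28923989, minus strand), a nuclear repressor first found fused to the RET kinase, had the largest fall of the family. It stood at 0.822, 0 and 1.33 CPM with curcumin, against 8.95, 10.8 and 11.8 CPM in untreated cells, a log2 fold change of -3.85 ± 0.64 (SE; adjusted p = 0.000628). Its counts were 11, 0 and 17 with curcumin and 236, 262 and 299 without. It lies beside the major histocompatibility region, where the reference holds alternative copies and the sharing of reads is not known, and it is uncertain for that reason. Of the other members of that region, TRIM10, TRIM26, TRIM31 and TRIM40 had few or no counts. TRIM15 had 110 counts in curcumin replicate 1 and 0 in every other library.

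TRIM62, a regulator of epithelial polarity, stood at 7.10, 6.83 and 5.55 CPM with curcumin, against 16.2, 21.6 and 21.1 CPM without (log2 fold change -1.59 ± 0.22, SE; adjusted p = 0.000184). TRIM72, known as MG53 and for membrane repair in muscle, stood at 25.3, 28.01 and 25.5 CPM with curcumin, against 72.3, 58.7 and 70.5 CPM without (log2 fold change -1.35 ± 0.15, SE; adjusted p = 7.01e-05). Both had curcumin libraries close to each other and far below the untreated ones. The further PRY-SPRY members called lower were TRIM68 at -0.87, TRIM65 at -0.74, TRIM35 at -0.72 and TRIM5 at -0.62, where TRIM65 is a ligase of the RNA sensor MDA5. TRIM35 was not called with the length trend removed, at -0.44 (adjusted p = 0.113). The call of TRIM5 was lost without curcumin replicate 1, at adjusted p = 0.0644. The call of TRIM68 was lost without untreated replicate 2 or 3, at adjusted p of 0.053 and 0.0814.

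The class held members without a call as well. TRIM11 stood at 43.2, 40.6 and 75.4 CPM with curcumin, against 58.3, 53.9 and 59.9 CPM without, with curcumin replicate 3 above all other libraries (log2 fold change -0.11, adjusted p = 0.695). Without that library it was called lower, at -0.45 (adjusted p = 0.02). TRIM41 and TRIM7 were at 0.02 and 0.09 with adjusted p of 0.926 and 0.721. Their groups overlapped, as did those of TRIM69.

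The smaller classes hold too few genes for a share to be read against the background. Both transmembrane members fell. TRIM13, anchored in the endoplasmic reticulum and located in the region of chromosome 13 often deleted in chronic lymphocytic leukaemia, stood at 8.75, 8.49 and 10.3 CPM with curcumin, against 30.5, 26.1 and 29.4 CPM without (log2 fold change -1.64 ± 0.18, SE; adjusted p = 5.98e-05). TRIM59 stood at 7.40, 10.95 and 10.6 CPM with curcumin, against 21.2, 31.6 and 18.1 CPM without (log2 fold change -1.29 ± 0.26, SE; adjusted p = 0.00188). Neither gene had overlapping groups. Both share exon sequence with neighbours, so their reads may be mixed. Of the exon bases of TRIM13, 13.4% also belong to KCNRG on the same strand. Of those of TRIM59, 14.5% also belong to AC079594.2 on the same strand and 19.9% lie opposite SMC4.

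NHL-repeat members bind RNA or substrates through a propeller fold, and 2 of 3 tested fell. TRIM32, whose mutation causes a limb-girdle muscular dystrophy, stood at 8.15, 5.87 and 15.6 CPM with curcumin, against 29.5, 32.5 and 33.0 CPM without (log2 fold change -1.68 ± 0.31, SE; adjusted p = 0.00113). TRIM2, which protects axons, stood at 38.2, 30.9 and 31.7 CPM with curcumin, against 73.4, 74.6 and 80.8 CPM without (log2 fold change -1.18 ± 0.15, SE; adjusted p = 0.000131). The curcumin libraries of both lay below every untreated one. TRIM3 was not called, at 0.34 (adjusted p = 0.222).

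Of the members with an ARF, filamin-type or MATH domain, TRIM23 fell by 1.08 on the log2 scale (adjusted p = 0.00389) and TRIM45 by 1.13 (adjusted p = 0.0426). TRIM45, at 1.97 ± 0.925 CPM with curcumin and 4.30 ± 0.574 CPM without (SD, n = 3 each), lost the call when any 1 library other than curcumin replicate 2 was left out, with adjusted p of 0.0596 to 0.133. It lost the call with the length trend removed as well (-0.98, adjusted p = 0.0792) and with RLE factors (adjusted p = 0.0505). TRIM37, which limits centriole formation and is mutated in mulibrey nanism, stood at 63.1, 58.6 and 45.5 CPM with curcumin, against 54.0, 74.2 and 55.9 CPM without, with overlapping groups (log2 fold change -0.14, adjusted p = 0.545).

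Members with no further domain were mixed: of 5 tested, TRIM56 and TRIM8 fell and 0 rose. TRIM8, a regulator of JAK-STAT signalling, stood at 81.3, 86.7 and 82.6 CPM with curcumin, against 147, 83.6 and 167 CPM without. The second untreated library lay within the curcumin range, and the call (log2 fold change -0.66, adjusted p = 0.0287) was lost when any 1 library other than untreated replicate 2 was left out, with adjusted p of 0.0503 to 0.111. TRIM73 and TRIM74, near-identical copies on chromosome 7 whose reads may be shared, were at 0.70 and 0.80 without a call.

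The members classed here as RING-less moved unevenly. Of 4 tested, 1 fell and 0 rose, against 28.9% and 27.2% of all tested genes. With library size alone all 4 were called lower, against 56.5%. TRIM16, which has been linked to NRF2 and the clearance of damaged proteins, stood at 40.3, 34.8 and 41.7 CPM with curcumin, against 30.0, 28.3 and 34.8 CPM in untreated cells, and the lowest curcumin value met the highest untreated one. Its log2 fold change was 0.33 ± 0.16 (SE; adjusted p = 0.107), with the length trend removed it was 0.43 and called higher (adjusted p = 0.0436), and with library size alone it was -0.48 and called lower (adjusted p = 0.0319). TRIM16L, a truncated copy of TRIM16 with which reads may be shared, stood at 12.5, 11.4 and 16.9 CPM with curcumin, against 10.0, 17.7 and 18.5 CPM without (log2 fold change -0.18, adjusted p = 0.594). Reads of TRIM16 may also be mixed with those of AC005324.3, to which 23.5% of its exon bases belong on the same strand. TRIM44 fell by 0.73 on the log2 scale (adjusted p = 0.0133, and 0.0536 without untreated replicate 3). With the length trend removed TRIM44 was at 0.26 without a call (adjusted p = 0.319). TRIM14 was at -0.39 (adjusted p = 0.0622). TRIM29, a marker of squamous and some epithelial tumours, had counts of 3, 11 and 9 with curcumin and 3, 6 and 20 without, too few to test.

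The microtubule and sarcomere members with a COS box held no called gene. TRIM9, TRIM36, TRIM46 and TRIM54 lay between -0.01 and 0.77 with a median of 0.24. Their means were at most 11.6 CPM in either group. The number with an unadjusted p under 0.05 in edgeR was 0, as was the number called by DESeq2, and with library size alone TRIM9 and TRIM36 were called lower, at -0.80 and -0.56. TRIM63 and TRIM42 had no counts, and TRIM55 and TRIM67 too few to test.

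**Figure D3:**
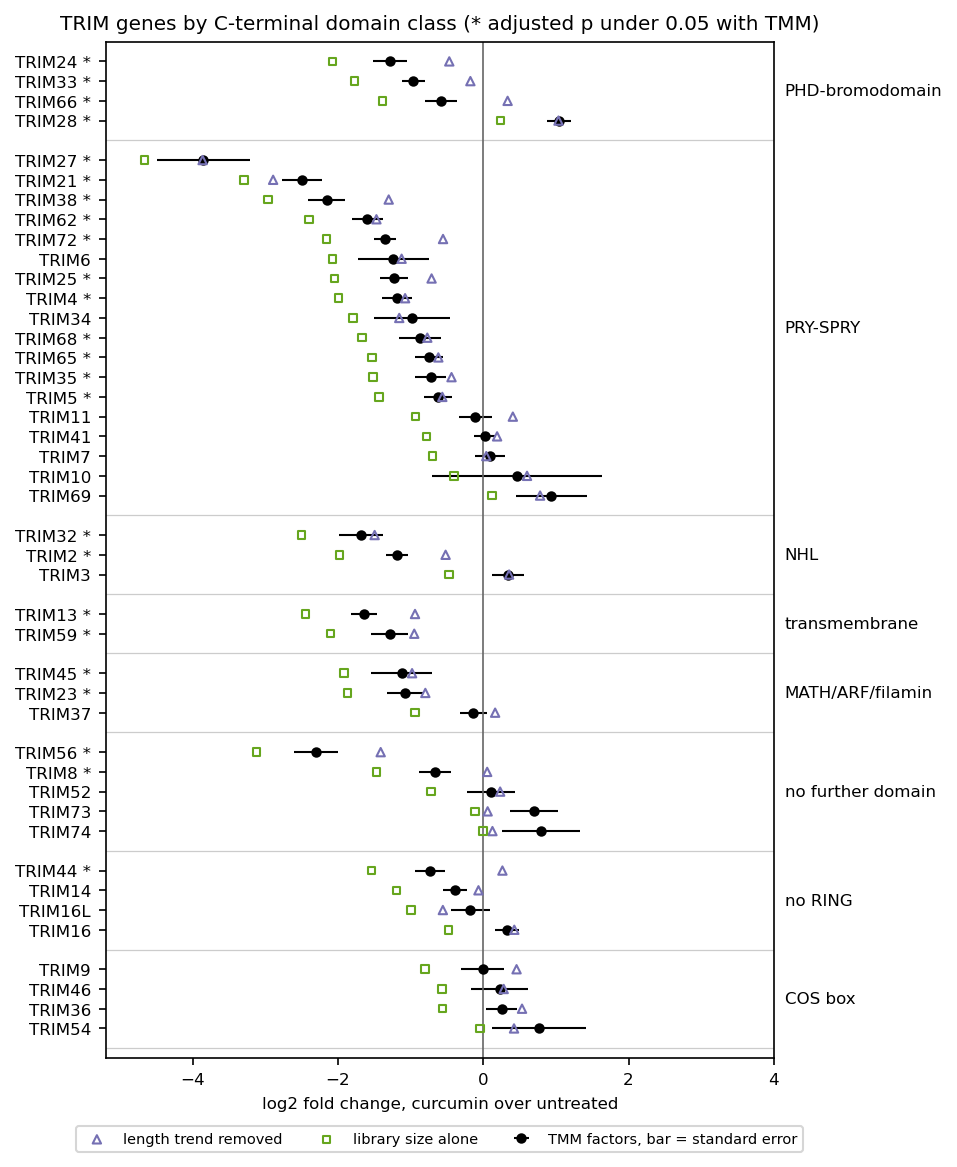
Log2 fold change, curcumin over untreated, of the 43 tested TRIM genes by C-terminal domain class: black points with TMM factors and their standard error, triangles with the length trend removed, squares with library size alone; a star marks an adjusted p under 0.05 with TMM. In the PRY-SPRY class 11 of 18 genes are starred, all left of 0, whereas the 4 COS box genes have no star.

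Long transcripts as a whole were lower after curcumin, and TRIM transcripts were slightly longer at the median, with 3546 bases for the 43 tested and 3388 bases for the 13196 tested coding genes. In the shortest of 3 equal classes of coding genes (207 to 2536 bases) 11.6% were called lower, in the middle class (2537 to 4441 bases) 27.2% and in the longest (4442 to 109224 bases) 50.2%. The TRIM genes called lower were 1 of 7 in the shortest class, 10 of 21 in the middle class and 12 of 15 in the longest. When the trend with length was removed in each library, 16 of the 43 TRIM genes were called lower (37.2%), all of them among the 23, against 21.5% of all tested genes. TRIM16 and TRIM28 were called higher, against 26.6% of all tested genes, and the median was -0.44 over the TRIM genes and 0.06 over all tested genes. The log2 fold change turned to values above 0, without a call, for 6 genes: TRIM8, TRIM44 and TRIM66 of those called lower with TMM, and TRIM9, TRIM11 and TRIM37 of the others. TRIM21, with a transcript of 1924 bases, moved the other way, to -2.89 (adjusted p = 5.74e-05).

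**Figure D4:**
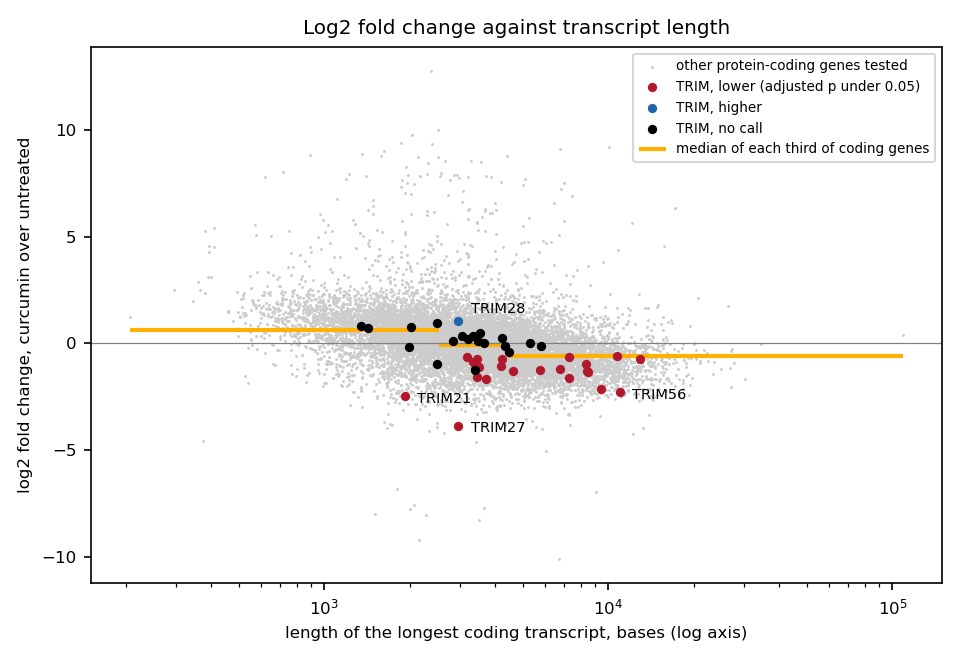
Log2 fold change, curcumin over untreated, against the length of the longest coding transcript in bases (log axis), for the 43 TRIM genes (coloured by call) and the other tested coding genes (grey); bars mark the median of each length class of coding genes. Those medians are 0.61, -0.06 and -0.60 from short to long, and 12 of the 15 longest TRIM genes are called lower.

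The scale set the number of calls. With library size alone 34 TRIM genes were called lower (79.1%) and 0 higher, against 56.5% and 9.62% of all tested genes, and the median was -1.52 over the TRIM genes and -0.84 over all. With library sizes counted without the 100 most abundant genes, 27 were lower and 1 higher, against 40.8% and 18.4% of all tested genes, at a median of -1.08 against -0.40 over all. All 23 were lower under both scalings.

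Members cluster in places on the genome. On the short arm of chromosome 11, 8 lie between 4384897 and 8682694: TRIM21, TRIM68, TRIM6, TRIM34, TRIM5, TRIM22, TRIM3 and TRIM66. Of the 7 tested, 4 were called lower and 0 higher, against 28.9% and 27.2% of all tested genes, and TRIM3 was above 0. Most exon bases of TRIM34 (83.0%) and 29.3% of those of TRIM6 also belong to the read-through gene TRIM6-TRIM34 on the same strand. Most reads of TRIM34 therefore cannot be told apart from those of the read-through gene, and part of the reads of TRIM6 may be shared with it.

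Among the 29 genes not tested, a few had counts mainly in curcumin libraries, and they were picked after their values were seen. TRIM15 had 110 counts in curcumin replicate 1 and 0 in every other library. TRIM71, an NHL-repeat protein of stem cells, had 0, 12 and 24 counts with curcumin and 1, 1 and 0 without. TRIM26, TRIM49, TRIM64 and TRIM64B had 0 counts in all untreated libraries and at most 10 in a curcumin library, and TRIM49 and TRIM64 belong to groups of near-identical copies. No row of the deposited table carries the symbol TRIM39, TRIM47 or TRIM75, so these could not be analysed under those names. The row named TRIM75P had 0 counts in every library.

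Family members whose symbols do not follow the pattern moved both ways. Of 7, 5 were tested: CMYA5, a muscle protein, was called higher at 2.30 (adjusted p = 0.00619) and TRIML2 at 1.43 (adjusted p = 0.0146), both with a wide spread between curcumin libraries. MID1, a microtubule ligase, fell by 0.71 (adjusted p = 0.0123), PML, the organiser of nuclear bodies, was at -0.43 (adjusted p = 0.0519) and MID2 at 0.27 (adjusted p = 0.455). With the length trend removed only CMYA5 was called, and with library size alone CMYA5 was higher and MID1 and PML were lower.

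The E2 enzymes, the class that RING fingers bind, gave counts near those of all genes. Of 30 tested, 7 rose and 8 fell, against 27.2% and 28.9% of all tested genes, and the median was -0.18. UBE2S, UBE2E1 and UBE2V1 rose, at 1.36, 1.32 and 0.88, and UBE2G1, UBE2W and UBE2H fell, at -1.26, -1.09 and -0.79. With the length trend removed 6 were higher and 8 lower, against 26.6% and 21.5% of all tested genes, and UBE2W and UBE2H were no longer called (adjusted p = 0.203 and 0.0839). Library size alone gave 2 higher and 23 lower, against 9.62% and 56.5% of all tested genes.

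Partners of TRIM28 in silencing at KRAB target sites moved both ways, with 3 of 15 higher and 6 lower, against 27.2% and 28.9% of all tested genes, and a median of -0.02. CHD3 and HDAC1, subunits of the NuRD deacetylase complex, rose at 1.45 and 1.08, as did HDAC2 at 0.41. CHD4 of the same complex, named after its value was seen, fell at -0.42 (adjusted p = 0.0286). Removal of the length trend put CHD4 at 0.24 without a call (adjusted p = 0.225). ATF7IP, the cofactor of the methyltransferase SETDB1, fell at -2.25 (adjusted p = 3.03e-05), as did the heterochromatin protein gene CBX5 at -1.68 and TASOR of the HUSH complex at -1.11. TASOR lost the call with the length trend removed (-0.41, adjusted p = 0.152), whereas ATF7IP and CBX5 stayed called lower. SETDB1 itself, chosen here after its value was seen, was at 0.16 without a call (adjusted p = 0.575). With the length trend removed 4 were higher and 3 lower, against 26.6% and 21.5% of all tested genes, and without untreated replicate 2 the number called higher was 5. Library size alone left 1 higher, CHD3, and 12 lower, against 9.62% and 56.5%. HDAC2 was at -0.39 there without a call (adjusted p = 0.0609).

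Genes of RNA sensing, on which TRIM25, TRIM4, TRIM65 and TRIM38 act, were mostly lower or without a call. Of 15 tested, 9 fell and 2 rose, against 28.9% and 27.2% of all tested genes, and the median was -0.63. Correcting for length gave 8 lower and 2 higher, against 21.5% and 26.6%, and with library size alone 12 were lower and 1 higher, against 56.5% and 9.62%. MAVS, the mitochondrial adaptor of RIG-I, averaged 54.9 ± 7.57 CPM with curcumin and 252 ± 35.9 CPM without (SD, n = 3 each; log2 fold change -2.20 ± 0.17, SE; edgeR, adjusted p = 1.38e-05). The adaptors TRAF6 and TRAF3 fell at -2.12 and -1.39. The RIG-I gene DDX58, named after its value was seen, averaged 7.19 ± 2.66 CPM with curcumin and 22.01 ± 4.01 CPM without (log2 fold change -1.61, adjusted p = 0.000762). The transcription factor gene IRF3 rose at 1.26 and DHX58, a regulator of RNA sensing, at 1.86.

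Interferon-stimulated genes moved both ways. Of 22 tested, 6 rose and 4 fell, against 27.2% and 28.9% of all tested genes, and the median was 0.53. Removal of the length trend gave 3 higher and 5 lower, against 26.6% and 21.5%, and a median of -0.17. USP18, IFITM3 and ISG15 rose at 1.48, 1.28 and 0.79, and of these IFITM3 and ISG15 were not called with the length trend removed. IFIT5, IFIT3 and IFIT2 fell at -1.83, -3.94 and -2.31, and IFIT3 had counts of 0, 0 and 7 with curcumin and 82, 74 and 63 without. With library size alone USP18 was the only one higher and 9 were lower, against 9.62% and 56.5% of all tested genes. The number called lower was 2 without untreated replicate 1 and 7 without untreated replicate 2.

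MAGE proteins are activators of TRIM28, and of 3 such genes listed 2 were tested. MAGEA3 rose at 0.53 (edgeR, adjusted p = 0.00934) and MAGEA6 at 1.71 (adjusted p = 0.0368), the second from at most 31 counts in a library. With the length trend removed neither was called, at 0.05 and 1.25, nor was either with library size alone, at -0.27 and 0.91. MAGEC2 had no counts.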

How the data were processed

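RNA-seq of HCT116 cells gave 6 libraries, 3 per group. The authors deposited 1 table of estimated counts per gene, not scaled between libraries; the aligner, counter, strand setting and annotation behind it: not given in the sources used here. Libraries were made with a SMARTer mRNA-Seq kit, per the labels' protocols. The submitters' processing notes list mouse genome builds, but all 35106 identifiers are human and 0 are mouse, and 35003 are in GENCODE release 29. Estimated counts were rounded to whole numbers. Genes were filtered with filterByExpr (minimum count 10, minimum total 15) and tested with edgeR 4.0.16 (R 4.3.3, TMM factors, quasi-likelihood test, Benjamini-Hochberg adjustment over all genes tested, calls at 0.05), with no covariate; the scripts were tested on simulated data. The SE of a log2 fold change was taken from the F statistic. Length is that of the longest coding transcript, and its trend was removed per library as loess offsets (span 0.3). Alternatives were DESeq2's size factors (RLE), library size alone or counted outside the 100 most abundant genes, a filter at a mean of 50 counts or none, DESeq2 1.42.0, limma-voom (limma 3.58.1), a replicate block, the length trend, and each library left out. Members and gene lists, with domain classes from general knowledge of the family, were chosen with earlier results of these data known. Values in every library are given for the 12 called members with the smallest adjusted p in each direction, the 6 most abundant members, and TRIM16, TRIM16L, TRIM21, TRIM24, TRIM25, TRIM28, TRIM29, TRIM33, TRIM37 and TRIM59; other lists give up to 3 genes per direction, or all of a list of at most 7. Part of 1 gene list is not reported here.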

Additional observations from a re-analysis of the deposited data

How the results depend on the processing

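Of the 23 TRIM genes called lower, 14 were called lower under each of the 16 alternatives run, and the number of TRIM genes called lower was 18 to 23 when 1 library was left out. With the length trend removed together with the replicate block it was 15, with the length trend alone 16 and with library size alone 34. The number called higher was 0 with library size alone, 3 without a filter (TRIM15, TRIM28 and TRIM71), 2 with the length trend removed (TRIM16 and TRIM28) and 1 to 4 with 1 library left out. The most, 4, came without curcumin replicate 1 (TRIM28, TRIM69, TRIM71 and TRIM73); 2 came without untreated replicate 1 (TRIM69 added) and 2 without untreated replicate 2 (TRIM71 added). Over all genes, library size alone called 1320 higher and 7744 lower, against 3732 and 3964. Library size alone, which put the median of all genes at -0.84 against -0.04, turned 11 TRIM genes from above to below 0, of which 4 were then called: TRIM41 (-0.78), TRIM7 (-0.70), TRIM36 (-0.56) and TRIM16 (-0.48), and removing the length trend turned 6 from below to above 0, of which 3 had been called: TRIM44 (0.26), TRIM66 (0.33) and TRIM8 (0.054). With length trend and replicate block together TRIM44 was at 0.26, TRIM66 at 0.32 and TRIM8 at 0.10. TRIM10, at 3.21 CPM in curcumin replicate 3 and near 0 in the other curcumin libraries, ranged over log2 fold changes of -4.16 to 1.03 when 1 library was left out, the lowest and called value being that without curcumin replicate 3. The causes were not tested. The difference in the TRIM share of counts was -0.109 to -0.0955 percentage points when 1 library was left out.

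The labels' replicate numbers were not taken as pairs: the deviations of same-numbered libraries correlated at 0.0396, 0.0229 and 0.111, and 5 of 6 libraries correlated best with their own number. The replicate block gave 22 TRIM genes lower and 1 higher, with TRIM45 and TRIM66 lost and TRIM6 gained.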
